A study of Oryza sativa Japonica Group with 15 samples.

Results

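Cinnamate 4-hydroxylase (C4H) and 4-coumarate:CoA ligase (4CL) carry out consecutive steps of the general phenylpropanoid pathway, and the transcripts of 8 of their genes were measured in the roots of rice seedlings. The genes were fixed by name and identifier and not by a cut on their values, but with earlier results of these data known. The C4H genes were C4H1 (Os05g0320700), C4H3 (Os02g0467000) and C4H4 (Os02g0467600). The 4CL genes were 4CL1 (Os08g0245200), 4CL2 (Os02g0697400), 4CL3 (Os02g0177600), 4CL4 (Os06g0656500) and 4CL5 (Os08g0448000). Together these are 8 of the 36747 features counted. A further gene of the family, C4H2 (Os01g0820000), had 0 reads in every library, which allows up to 3 reads in each. Of the 8 members, 7 reached the mean normalised count of 5 required for testing, and 4CL2 did not.

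Plants make phenylpropanoids from phenylalanine. Phenylalanine ammonia-lyase (PAL) forms cinnamate, C4H, a membrane-bound cytochrome P450, hydroxylates cinnamate to coumarate, and 4CL joins coumarate to coenzyme A. Coumaroyl-CoA is the branch point from which monolignols, the units of lignin, and flavonoids are made. In roots these products stiffen vessel and barrier walls and take part in defence. Of the rice ligases, 4CL3 has been tied to lignin and 4CL2 to flavonoids.

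The seedlings (Oryza sativa Japonica Group, cultivar Kitaake) received leaf sprays with 0.1% Tween 20, and each library held the pooled roots of 4 plants taken on day 14 after transplantation. Each of 5 groups had 3 such libraries. Mock plants, BABA plants (R,S-beta-aminobutyric acid at 3.5 mM), ASM plants (acibenzolar-S-methyl at 250 µM, a functional analogue of salicylic acid that is also called BTH) and PA1x plants (piperonylic acid at 300 µM) were sprayed on day 13, and PA2x plants (piperonylic acid at 300 µM) on days 7 and 13. Piperonylic acid is an inhibitor of the C4H enzyme. The question for these genes was how root transcripts of that step and of the next one stood after each leaf spray. Whether the enzyme was inhibited in these roots was not tested. Compounds were used at different doses, the mock group had no spray on day 7, and each difference between groups is one of the whole treatment.

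Libraries held 4130194 to 9480830 reads. The root markers stood far above the leaf markers, with sums of 21683 to 41549 normalised reads over 6 root genes and of 8.49 to 319 over 7 leaf genes per library, and none of these genes was at 0 throughout a group. In root tissue as a whole, fewer cells of a type and less RNA per cell cannot be told apart. Nothing in the labels ties same-numbered pools to each other, and p-values measure the spread between these pools.

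Among the C4H genes, C4H1 held most of the reads in every library. Its normalised counts in replicates 1, 2 and 3 were 1591, 2516 and 1288 in mock and 1502, 1703 and 1326 in PA1x. They were 2425, 2036 and 1155 in PA2x, 2149, 2539 and 1386 in BABA and 2318, 1923 and 2565 in ASM. All 5 groups overlapped with the group next to them in the order of means, and the highest and lowest group means, those of ASM and PA1x, were 1.50 times apart. For PA1x against mock the fold was 0.870 with a 95% interval of 0.579 to 1.31 (limma, adjusted p = 0.888), and for PA2x against mock it was 1.03 (0.689 to 1.55, adjusted p = 0.968).

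C4H4 differed far more between groups. Its counts were 596, 888 and 346 in mock, 1044, 1015 and 433 in BABA and 696, 1012 and 1415 in ASM. They were 259, 283 and 233 in PA1x and 1453, 1433 and 750.1 in PA2x. Every PA1x library lay under every library of the other 4 groups, and every PA2x library lay over every PA1x library. After both sprays C4H4 was 4.49-fold higher than after 1 spray (95% interval 2.61 to 7.75; log2 fold change 2.17 ± 0.37 SE, adjusted p = 0.000791). Against ASM it was lower in PA1x by a log2 difference of -1.95 ± 0.37 (adjusted p = 0.00141), and against BABA by -1.58 ± 0.37 (adjusted p = 0.0103), a call lost without BABA replicate 1 or 2 (adjusted p = 0.058 and 0.0647). Against mock neither PA group passed, with log2 values of -1.14 ± 0.37 in PA1x (adjusted p = 0.135) and 1.03 ± 0.37 in PA2x (adjusted p = 0.247). The mock libraries themselves spread from 346 to 888. The PA1x value passed in 3 alternatives: without mock replicate 3, at -1.50 (adjusted p = 0.0389), in a fit of only the libraries compared (adjusted p = 0.0374) and without replicate 3 of every group, at -1.42 (adjusted p = 0.00309).

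C4H3, whose identifier lies close to that of C4H4 on chromosome 2, was near the limit of detection. It had 7, 13 and 10 recovered reads in mock, 8, 7 and 4 in BABA, 14, 9 and 14 in ASM, 4, 2 and 1 in PA1x and 14, 16 and 10 in PA2x. In normalised counts, in which libraries of unequal depth can be compared, the PA1x libraries (0.905 to 3.22) lay under all others. PA1x replicate 1 and BABA replicate 3 had 4 reads each, and only scaling for depth set them apart (3.22 and 3.57). The PA2x libraries (13.4 to 17.0) lay over those of mock, BABA and PA1x. The fitted log2 difference of PA2x over PA1x was 2.54 ± 0.43 (adjusted p = 0.000777). PA1x was lower than ASM by -2.29 ± 0.43 (adjusted p = 0.00139), than BABA by -1.69 ± 0.43 (adjusted p = 0.0184) and than mock by -1.69 ± 0.43 (adjusted p = 0.0404). The call against mock was lost with edgeR (adjusted p = 0.0521), without any one of the mock libraries and without PA1x replicate 2 or 3 (adjusted p 0.0648 to 0.201). That against BABA was lost without BABA replicate 1 or 2 or PA1x replicate 2 or 3 (adjusted p 0.0649 to 0.094), and both calls were lost in fits of only the libraries compared (adjusted p = 0.0817 for mock and 0.1 for BABA). By summed reads, 40 in PA2x against 7 in PA1x, the depth-adjusted ratio was 7.92 (exact 95% interval 3.51 to 21.0, counting error only). C4H3 reads were 0.389% to 2.00% of C4H4 reads in a library, with a median of 1.08%, and the log2 levels of both genes had r = 0.90 over the 15 libraries, which share groups and depth. Whether reads of C4H4 were counted for C4H3 was not tested.

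**Figure D1:**
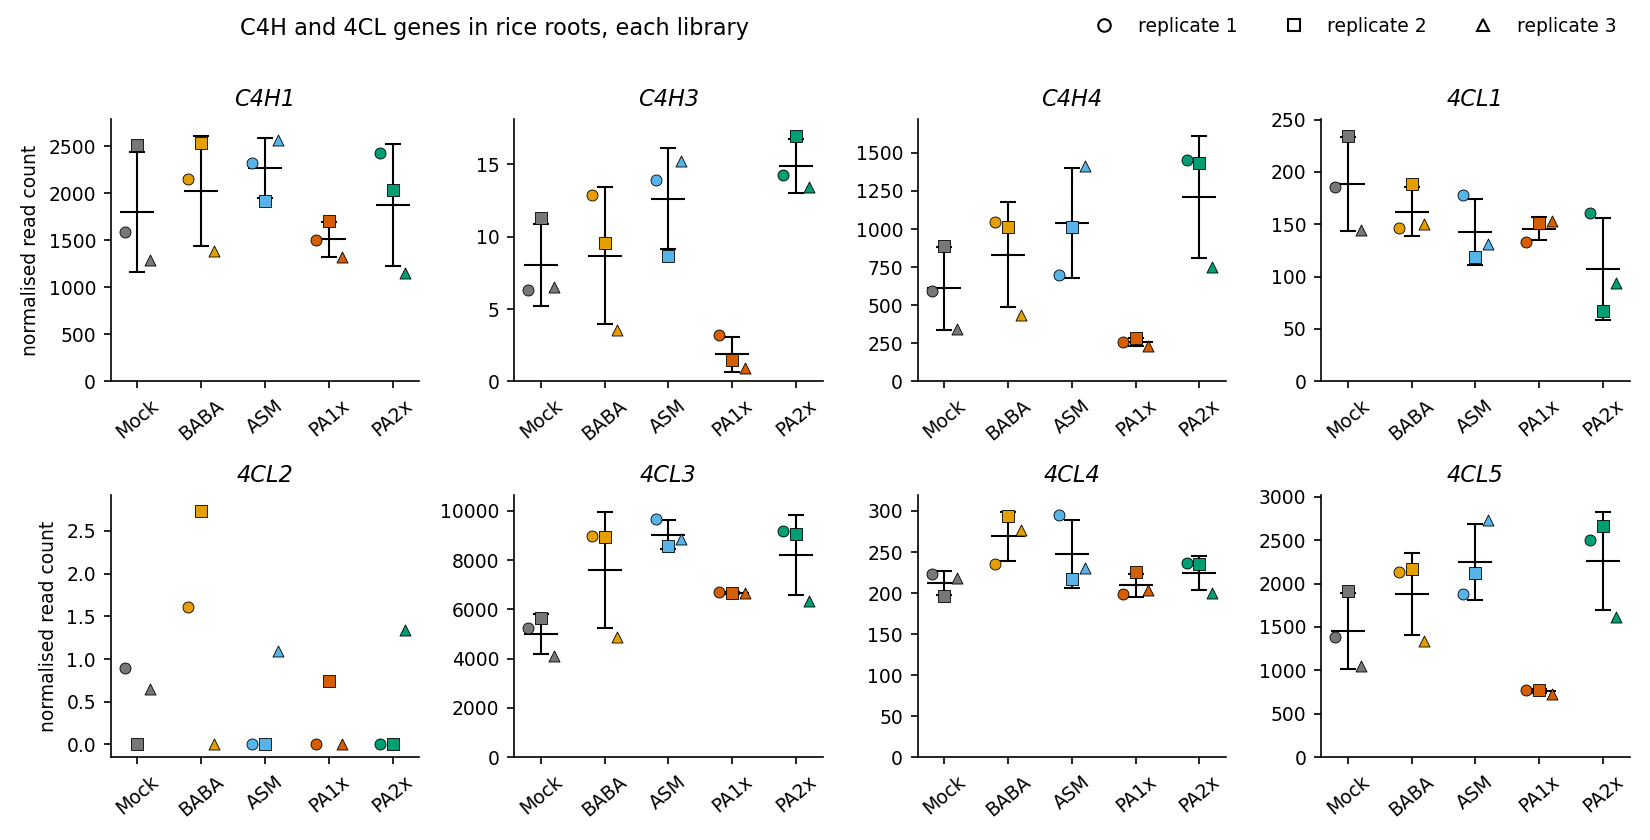
Normalised read counts of the 8 genes (vertical axes, a separate scale per gene) in the 5 groups. Symbols are the 3 libraries of a group, and horizontal and vertical bars are the mean and SD, left out for 4CL2, which had at most 2 reads in a library. In the panels of C4H3, C4H4 and 4CL5 the PA1x libraries lie under those of all other groups, and in that of 4CL3 they lie above mock.

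Among the ligases, 4CL3 was the main transcript and did not share the low level in PA1x. Its counts were 5231, 5652 and 4109 in mock, 6693, 6653 and 6647 in PA1x and 9187, 9078 and 6332 in PA2x. They were 8971, 8958 and 4868 in BABA and 9682, 8581 and 8848 in ASM. All libraries of ASM, PA1x and PA2x lay above the 3 mock libraries, while BABA replicate 3 lay among them. In ASM 4CL3 rose 1.82-fold (95% interval 1.34 to 2.48; adjusted p = 0.0263). That call was lost without any one of mock replicates 1 and 3 and ASM replicates 1, 2 and 3 (adjusted p 0.0573 to 0.117). The folds over mock were 1.63 in PA2x (1.20 to 2.22, adjusted p = 0.141), 1.48 in BABA (1.09 to 2.01, adjusted p = 0.339) and 1.35 in PA1x (0.989 to 1.83, adjusted p = 0.428). Without BABA replicate 3 the BABA log2 value was 0.86 and passed (adjusted p = 0.0357).

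4CL5, the next most counted ligase transcript, behaved unlike 4CL3. It had 1386, 1914 and 1047 normalised reads in mock, 777, 778 and 731 in PA1x and 2507, 2660.5 and 1610.1 in PA2x. BABA libraries had 2135, 2163 and 1339, and ASM libraries 1884, 2119 and 2737. The PA1x libraries were again under those of all other groups. 4CL5 was 2.89-fold higher in PA2x than in PA1x (95% interval 2.05 to 4.08; adjusted p = 0.00029). In PA1x it was lower than in ASM by -1.54 ± 0.23 (log2, adjusted p = 0.000198) and than in BABA by -1.27 ± 0.23 (adjusted p = 0.00166). Against mock it fell by 0.88 on the log2 scale in PA1x (SE 0.23, adjusted p = 0.0484), a value just inside the threshold. With a library left out this call held only without mock replicate 3 (adjusted p = 0.0198), and without mock replicate 2 the adjusted p reached 0.251. It was 0.0507 with TMM scaling and 0.0692 with no filter on low values. In PA2x and ASM 4CL5 stood 1.57-fold and 1.58-fold above mock (adjusted p = 0.247 and 0.141), and the ASM value passed without mock replicate 2 (adjusted p = 0.0441).

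The remaining ligases had fewer reads. 4CL4, known from a rice mutant with altered aluminium tolerance of its roots, had group means of 209 to 269 and counts from 196 to 295 over all 15 libraries. Its highest and lowest group means, BABA and PA1x, were 1.28 times apart, and its BABA libraries (236, 294 and 277) all lay above the mock libraries (224, 196 and 218). The fold was 1.26 and did not pass (log2 0.33 ± 0.13, adjusted p = 0.365). For PA1x against mock the 4CL4 fold was 0.985 and for PA2x against mock 1.05 (adjusted p = 0.982 and 0.89).

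4CL1 was the ligase with its highest mean in mock, at 186, 234 and 145 normalised reads. It had 147, 189 and 151 in BABA, 178, 118 and 131 in ASM, 133, 151 and 153 in PA1x and 161, 66.9 and 93.9 in PA2x, and PA2x replicate 1 overlapped with mock. Its fold in PA2x over mock was 0.546 (0.376 to 0.792, adjusted p = 0.129). That value turned on PA2x replicate 1, without which it was -1.21 on the log2 scale against mock (adjusted p = 0.0314) and -0.87 against PA1x (adjusted p = 0.0211). 4CL2 had 0 to 2 reads in a library and 8 in all, in 7 of the 15 libraries, so no difference was detectable at this depth.

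Over the 5 groups, expression of 3 of the 7 tested members varied in limma's moderated F test, against 12.2% of all 18316 genes tested. They were C4H3, C4H4 and 4CL5 (adjusted p = 0.00419, 0.00372 and 0.000811). 4CL3 stood outside the threshold (adjusted p = 0.0653), as did 4CL1, 4CL4 and C4H1 (0.178, 0.258 and 0.59). In the fit of all 15 libraries every member called between PA1x and another group was 1 of these 3. PA2x was higher than PA1x in 3 of 7 members, with 8.31% of all genes called higher. PA1x was lower than ASM in 3 of 7 (10.4% of all genes called lower) and lower than BABA in 3 of 7 (7.61%). In a fit of only the PA1x and ASM libraries 5 of 7 were lower, with C4H1 and 4CL3 added (adjusted p = 0.0128 and 0.0252), beside 11.5% of all genes. The same 5 members had PA1x libraries that all lay under those of ASM, as did 18.9% of all genes. Against mock, 2 of 7 were called lower in PA1x, C4H3 and 4CL5, with 3.13% of all genes. In that comparison 4 of 7 members had libraries that did not overlap with mock, 3 lower and 4CL3 higher, and 21.1% of all tested genes did so.

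ASM raised 1 of 7 members over mock, 4CL3, and 3.28% of all genes were called higher. In BABA and PA2x no member was called against mock, where 0.251% and 0.928% of all genes were. At an unadjusted p under 0.05 there were 2 members for BABA, beside 10.3% of all genes, and 4 for PA2x, beside 11.8%. Those for BABA, 4CL3 and 4CL4, were higher than mock. For PA2x, C4H4, 4CL3 and 4CL5 were higher and 4CL1 was lower (log2 -0.87). edgeR called 0 in both and DESeq2 called 0 in BABA and 1, 4CL3, in PA2x. Without replicate 3 of every group 3 members were called in PA2x, C4H4, 4CL3 and 4CL5 (log2 0.99, 0.75 and 0.66; adjusted p = 0.0263, 0.0224 and 0.0479), beside 1.27% of all genes. No member was called between PA2x, BABA and ASM. By limma, edgeR and DESeq2 alike 0 of 7 were called in PA2x against ASM, BABA against ASM and PA2x against BABA, beside 1.44%, 0.3% and 0% of all genes by limma, and at an unadjusted p under 0.05 there were 0, 0 and 1, beside 11.9%, 10.7% and 7.16% of all genes. The comparisons with mock share its 3 libraries, and those with PA1x share its own 3.

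**Figure D2:**
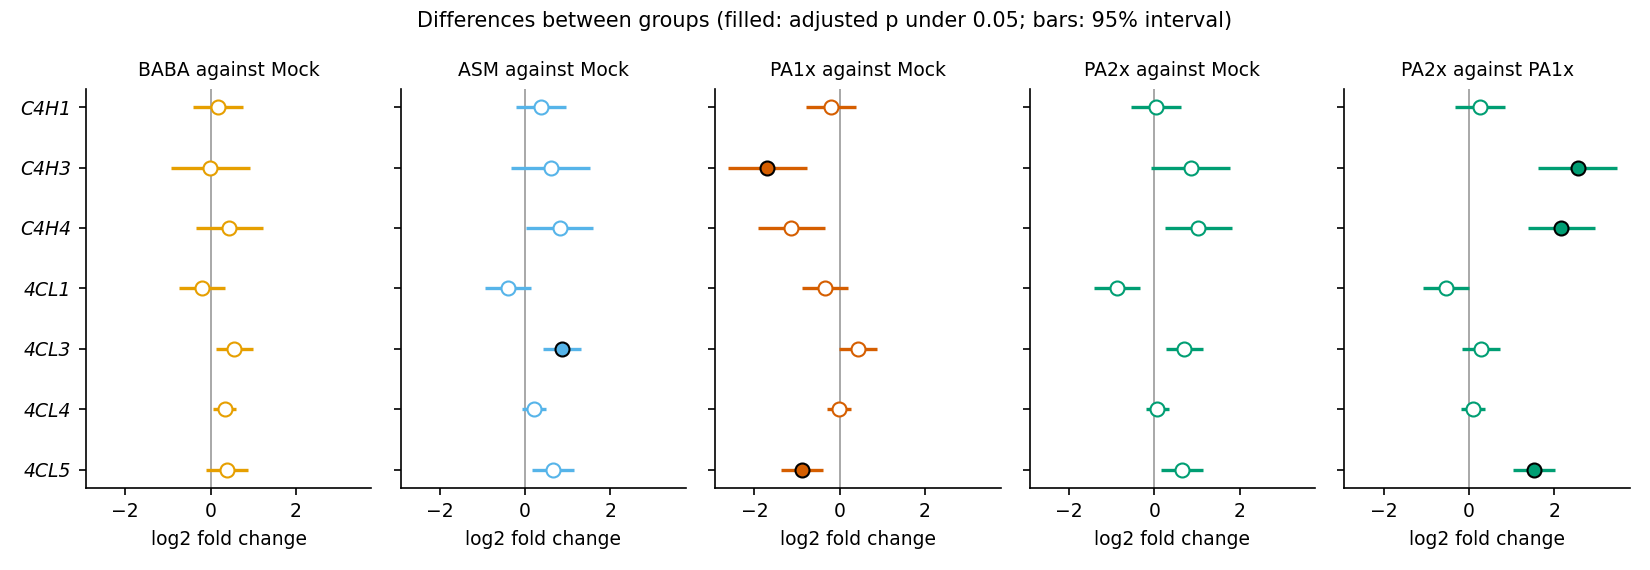
Log2 fold change (horizontal axis) of the 7 tested genes in 5 comparisons, with 95% intervals from the limma fit. Filled points passed at an adjusted p under 0.05. C4H3, C4H4 and 4CL5 lie left of 0 for PA1x against mock and right of 0 for PA2x against PA1x (log2 2.54, 2.17 and 1.53), while C4H1, 4CL1, 4CL3 and 4CL4 have intervals that include 0 in the latter.

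The makeup of each family shifted with these differences. A read of a 3′ library stands for a transcript end, so shares are given as shares of reads and not divided by length. C4H1 took 74.9% ± 3.17 of the C4H reads in mock (mean ± SD, n = 3) and C4H4 24.8% ± 3.23. In PA1x the C4H4 share was 14.6% ± 0.358, and in PA2x 39.2% ± 1.89. ASM had 30.9% ± 6.89 and BABA 28.3% ± 4.40. The PA1x shares (14.2% to 14.9%) lay under all others and the PA2x shares (37.3% to 41.1%) over all others. Among ligases, 4CL3 took 73.2% ± 2.17 in mock and 85.6% ± 0.389 in PA1x, and 4CL5 took 20.9% ± 2.68 in mock, 9.80% ± 0.294 in PA1x and 20.8% ± 1.28 in PA2x. 4CL5 had a share in PA2x within the range of mock, whereas that of C4H4 lay above it.

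**Figure D3:**
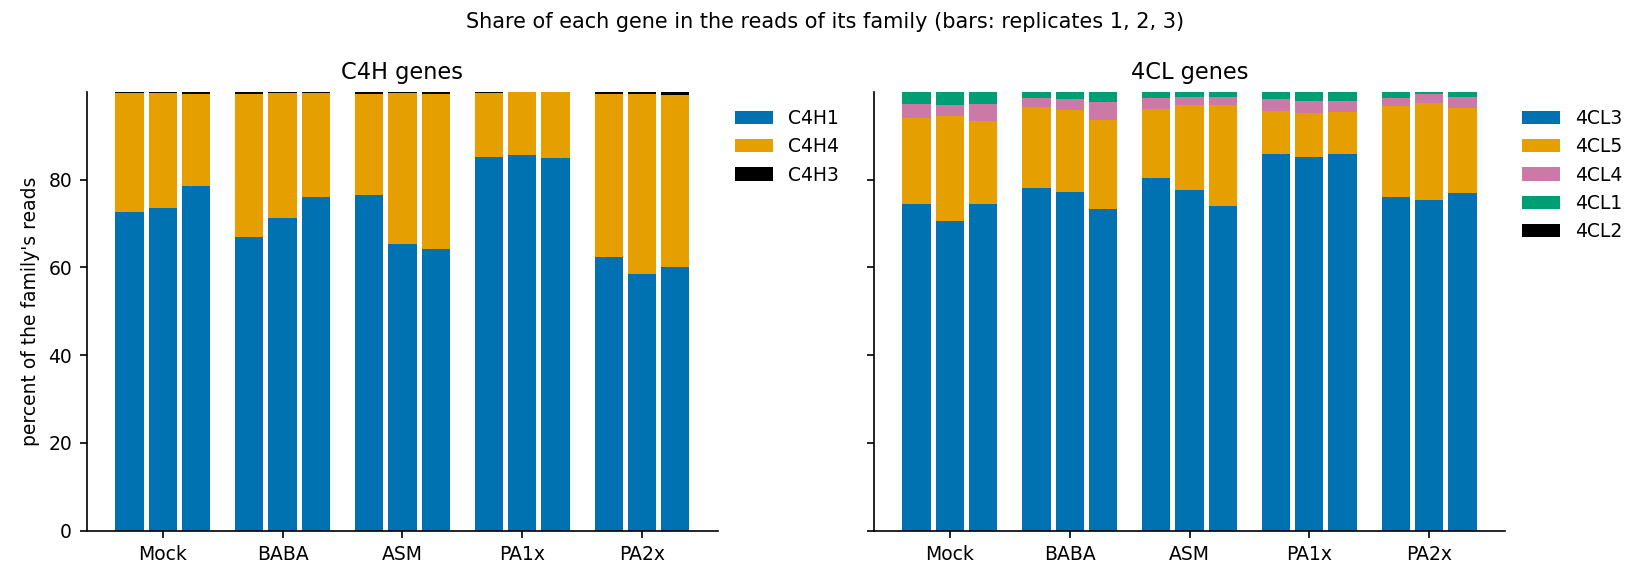
Percent of the reads of the C4H genes (left) and of the 4CL genes (right) taken by each gene, with 1 bar per library in the order of replicates 1 to 3. C4H4 holds 14.2% to 14.9% in PA1x and 37.3% to 41.1% in PA2x, and 4CL5 holds 9.46% to 9.97% in PA1x.

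Ratios between members do not depend on how libraries are scaled. The ratio of C4H4 to C4H1 was 0.375, 0.353 and 0.269 in mock, 0.173, 0.166 and 0.175 in PA1x and 0.599, 0.703 and 0.649 in PA2x. It differed from mock by -0.94 on the log2 scale in PA1x and by 0.98 in PA2x, without overlap. The ratio of 4CL5 to 4CL3 was 0.265, 0.339 and 0.255 in mock, 0.116, 0.117 and 0.110 in PA1x and 0.273, 0.293 and 0.254 in PA2x, a log2 difference from mock of -1.31 in PA1x and -0.06 in PA2x. Each of the differences without overlap reached p = 0.1 in a two-sided exact permutation test, the smallest that 3 against 3 libraries allow (0.2 after adjustment over 10 tests). These ratios were chosen after the values were seen.

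In the families as wholes, the summed C4H count was 2193, 3416 and 1639.9 in mock and 1765, 1987 and 1559.7 in PA1x, so the PA1x sums lay within or just under the mock range. The summed 4CL count was 7028, 7997 and 5519 in mock and 7802, 7809 and 7735 in PA1x, within the mock range. In ASM it was 12039, 11036 and 11947, above every mock library.

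C4H4 and 4CL5, on different chromosomes, followed each other closely. Over the 15 libraries their log2 levels had r = 0.99, and within groups, after subtracting each group's mean, r = 0.98 (Pearson, a description; libraries of a group share their treatment). Among 14035 other genes with a mean of at least 20, 4CL5 ranked 2 by likeness to C4H4, after Os05g0392700 (r = 0.99), and C4H4 ranked 4 by likeness to 4CL5, led by Os09g0365900 and Os04g0606200 (r = 0.99 each). In all 5 groups the library lowest in C4H4 was also the lowest in 4CL5. The ratio of 4CL5 to C4H4 nevertheless ran from 1.73 in PA2x replicate 1 to 3.14 in PA1x replicate 3.

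The other members had other neighbours. C4H1 was most like Os03g0255500 and Os09g0258000 (r = 0.95 each), and its r with C4H4 was 0.72. Within groups, after subtracting each group's mean, C4H1 had r = 0.87 with C4H4 and 0.91 with 4CL5. 4CL3 was most like Os04g0391500 and Os03g0253500 (r = 0.93 and 0.91), with r = 0.60 to 4CL5. Its within-group r was 0.82 with 4CL5, 0.82 with C4H4 and 0.85 with C4H1. C4H1, C4H4, 4CL3 and 4CL5 thus moved together between libraries of a group. How many other genes moved with them was not tested. Over the 15 libraries C4H4 ranked 719 and 4CL3 ranked 877 by likeness to C4H1. 4CL4 was most like Os11g0703100 and Os07g0168900 (r = 0.90 and 0.87), with a within-group r of -0.21 to C4H4. 4CL1 was most like Os03g0223400 and Os02g0620600 (r = 0.93 and 0.91), and its r with C4H4 was -0.19 (0.22 within groups).

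**Figure D4:**
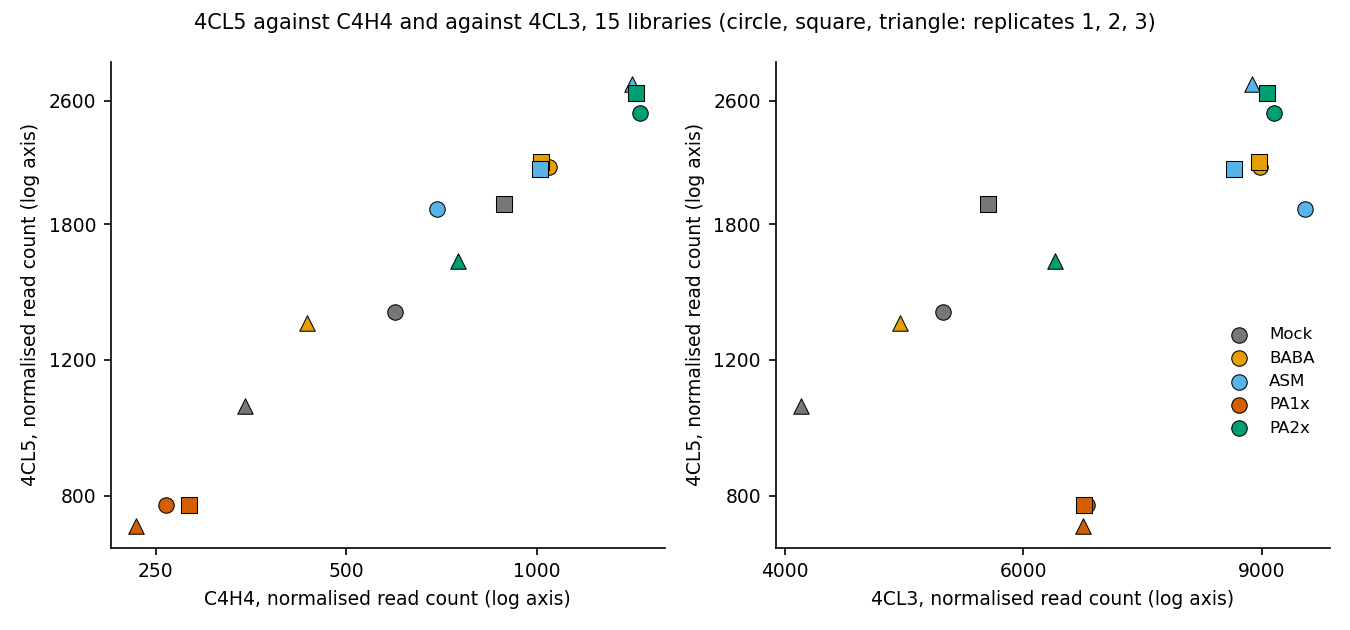
Normalised read counts of 4CL5 (vertical, log axis) against C4H4 (left) and 4CL3 (right) in the 15 libraries, coloured by group, with symbols for replicates 1 to 3. On the left the libraries of all groups lie along a single band (r = 0.99). On the right the 3 PA1x libraries lie apart, with 4CL3 at 6647 to 6693 and 4CL5 at 731 to 778.

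Within a group, several libraries stood high or low in most of the well counted members at once. The mean log2 deviation of C4H1, C4H4, 4CL3 and 4CL5 from their group means was -0.46 in mock replicate 3, -0.59 in BABA replicate 3 and -0.52 in PA2x replicate 3, with all 4 genes below their mean in each. It was -0.10 in PA1x replicate 3, again with all 4 below, and 0.24 in ASM replicate 3. Mock replicate 3 was the deepest library, with 9480830 reads, BABA replicate 3 the deepest and PA2x replicate 3 the shallowest of their groups. The part of depth or of any shared handling in these deviations was not tested. Of the 5 groups PA1x had the lowest coefficient of variation in C4H1, C4H4, 4CL1, 4CL3, 4CL4 and 4CL5. In 4CL4 mock was almost as low (6.82% in PA1x and 6.83% in mock). For C4H3 PA1x had the highest (64.6%), where counting alone gives 65.5%. The PA1x value was 9.67% for C4H4, while other groups had 33.0% to 44.5%. For 4CL3 it was 0.369%, under the 1.10% that counting alone gives for that number of reads, and for 4CL5 3.51%. Other groups had 6.35% to 31.1% for 4CL3 and 19.6% to 30.2% for 4CL5. The limma fit gave all 5 groups 1 shared spread per gene.

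The steps before and after were compared with the members. Of 9 listed PAL genes 8 were tested. PAL4 (Os02g0627100) had 2491, 2920.0 and 2121 normalised reads in mock, 1468, 1481 and 1372 in PA1x and 4543, 4431 and 3509 in PA2x, again with every PA1x library under all others, and it had r = 0.96 with 4CL5 over the 15 libraries. By that likeness to 4CL5 it ranked 59 among 14035 other genes. PA2x was higher than PA1x in 5 of 8 PAL genes (8.31% of all genes), and among them PAL3 (Os02g0626600), PAL4 and PAL6 (Os04g0518400) stood 3.19-fold, 2.87-fold and 2.57-fold higher (adjusted p = 2.44e-05, 7.23e-06 and 1.12e-05) and PAL2 (Os02g0626400) 1.75-fold (0.00426). Against mock, 3 of 8 were lower in PA1x (PAL3, PAL4 and PAL6, at 0.559, 0.578 and 0.594 of the mock level), beside 3.13% of all genes. In PA2x 1 was higher (PAL4, 1.66-fold) and in ASM 4 were (PAL2, PAL3, PAL4 and PAL6), beside 0.764% and 3.28% of all genes. PA1x was lower than ASM and lower than BABA in 5 of 8 each, beside 10.4% and 7.61% of all genes. PAL2, PAL3, PAL4 and PAL6 were among the 5 in both. PAL1 (Os02g0626100), the most counted PAL gene, had means of 34167 ± 551 in mock, 38889 ± 1536 in PA1x and 37212 ± 1624 in PA2x (SD, n = 3), and its r with 4CL5 was -0.29. The median log2 fold change of PA2x over PA1x was 0.99 over the 8 PAL genes, 0.28 over the 7 members and -0.02 over all genes tested.

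Genes that make monolignols from coumaroyl-CoA were listed as well. Of 11 listed, 8 were tested, and 1 was higher and 1 lower in PA2x than in PA1x (median -0.07). Beside these stood 8.31% of all genes called higher and 2.96% called lower. The hydroxycinnamoyl transferase genes HCT2 (Os02g0611800) and HCT1 (Os04g0500700) differed in direction, at 1.56-fold (adjusted p = 0.0121) and 0.757-fold (0.0181). HCT2 had 524, 539 and 541 normalised reads in PA1x and 963, 783 and 778 in PA2x. Against mock 0 of 8 were called in PA1x and PA2x, beside 3.53% and 0.928% of all genes. With ASM 1 of 8 was higher than mock, beside 3.28% of all genes. It was the cinnamoyl-CoA reductase gene CCR20 (Os08g0441500), at 1.40-fold (adjusted p = 0.00572). PA1x was lower than ASM in 2 of 8, HCT2 and CCR20 (adjusted p = 0.00255 and 0.0185), beside 10.4% of all genes called lower. HCT2 was also lower in PA1x than in BABA (adjusted p = 0.00712), beside 7.61%. CCR20 was lower in PA2x than in ASM (adjusted p = 0.0205), beside 0.945%. Of the flavonoid genes CHS1 and CHI were tested, and neither passed in any of the 10 pairs of groups.

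Markers of other tissues and walls were set beside these values. Of the 6 root markers 2 were lower in PA2x than in PA1x, the silicon transporter genes LSI1 (Os02g0745100) and LSI2 (Os03g0107300), which are active in the barrier layers of the root, with log2 values of -0.75 ± 0.14 (adjusted p = 0.00141) and -0.43 ± 0.12 (adjusted p = 0.0323), beside 2.96% of all genes called lower. The same 2 genes were lower in ASM than in mock (-0.66 and -0.46; adjusted p = 0.0102 and 0.0429), beside 1.26% of all genes, and none of the 6 was called between PA1x and mock. In PA1x, LSI1, LSI2 and the root gene RCc3 (Os02g0662000) were 1.85-fold, 1.44-fold and 1.93-fold higher than in ASM (adjusted p = 0.000234, 0.00705 and 0.0132), beside 5.35% of all genes called higher. LSI1 was also 1.51-fold higher than in BABA (adjusted p = 0.00867), beside 2.14% of all genes called higher. The nitrate transport partner gene NAR2.1 (Os02g0595900) was lower in PA2x than in mock, at 0.440 of its level (adjusted p = 0.0478), beside 0.164% of all genes. Sums over the 6 were 34449 to 41549 in PA1x, 23669 to 34685 in PA2x, 21683 to 35616 in ASM, 33385 to 39311 in BABA and 37986 to 40957 in mock. The secondary wall cellulose synthase genes CESA4, CESA7 and CESA9 summed to 2261 to 2683 in PA1x and to 1093 to 2163 in mock, and CESA7 (Os10g0467800) was 1.64-fold higher in PA1x than in mock (adjusted p = 0.0455; 0.399% of all genes called higher) and 1.65-fold higher than in ASM (adjusted p = 0.0136). The leaf markers summed to 18.5 to 319 in PA1x, 8.49 to 47.9 in PA2x, 24.0 to 122 in ASM, 53.5 to 112 in BABA and 18.0 to 301 in mock. The 4 tested leaf markers had a median log2 value of -0.92 for PA2x against PA1x. Of these 0 were called, beside 11.3% of all genes. Sums of 5 reference genes were 10658 to 11263 in PA1x, 10530 to 11016 in PA2x, 8765 to 11204 in ASM, 9700 to 10889 in BABA and 10625 to 11398 in mock. The part of cell composition in the differences of C4H and 4CL genes was not tested.

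**Figure D5:**
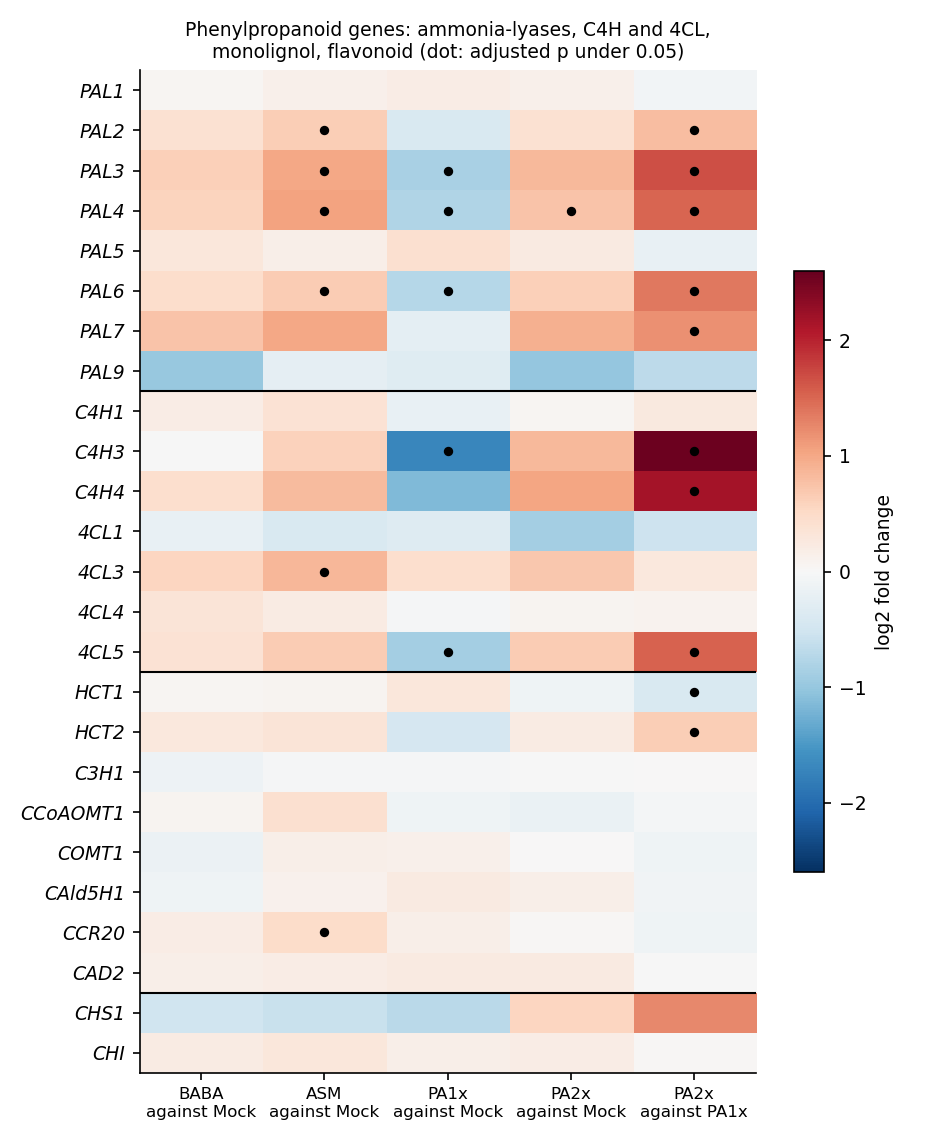
Log2 fold change (colour) of the tested PAL, C4H and 4CL, monolignol and flavonoid genes (rows, in blocks from top to bottom) in 5 comparisons (columns). Dots are values with an adjusted p under 0.05. In the PA2x against PA1x column, 5 PAL genes and C4H3, C4H4 and 4CL5 have dots and are higher, and of the 8 monolignol genes HCT2 is higher and HCT1 lower.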

How the data were processed

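QuantSeq 3′ libraries, in which a read comes from the 3′ end of a transcript, were made from 2 µg of root RNA each, per the labels' protocols. The deposited values are a signal, namely gene-wise read numbers after the authors' division by a size factor for each library. Per the submitters' processing notes the tools were FastQC 0.11.8, Trimmomatic 0.38, STAR 2.6.1d and DESeq2. Neither build nor annotation nor strand setting is named in the sources used, and reads of antisense or near-identical genes may be shared. No genome or protein sequence was used here.

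The members and gene lists were chosen with earlier results of these data known. All 8 member identifiers were in the file of 36747 features. The file pairs no identifier with a name. The 5 4CL names stand on the matching chromosome in the RefSeq gene table of assembly ASM3414082v1, as do 25 of all 53 list names. For 2 names, C3H1 and UBQ5, the RefSeq gene of that name lies on another chromosome than the identifier, so both are uncertain. The others, C4H and PAL included, rest on general knowledge. In each library 100% of values were whole multiples of 1 read within 0.1, which gave the recovered reads; on these edgeR called 2134 genes between PA2x and PA1x.

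Tests used limma 3.58.1 in R 4.3.3, with its trend option, on log2(normalised count + 1), a scale that understates changes of low genes. Entering were 18316 genes (mean of 5 or more), all 15 libraries and group as the only term. The test was two-sided, with Benjamini-Hochberg adjustment over all genes and a threshold of 0.05. It was run on simulated data too, with a set spread and genes drawn independently. That check cannot give error rates for data in which genes of a library deviate together. Called means past that threshold. Alternatives were other pseudocounts and filters, TMM scaling, only the libraries compared, edgeR 4.0.16 and DESeq2 1.42.0 on recovered reads, a replicate block and each library left out. The fit without replicate 3 of every group and the ratios between members were chosen after seeing the data. For a count of 0 the limit used was 3 reads in a library, for counting error only. Named genes were all members and C4H2, the called list genes (at most 4 per list and comparison) and, per member with a mean of at least 20, the 2 genes of most similar pattern.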

Additional observations from a re-analysis of the deposited data

Results flagged for a closer look

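C4H3, C4H4 and 4CL5 stood out because the difference between both piperonylic acid groups, which was itself tested, passed. Their PA1x and PA2x groups lay on opposite sides of mock by log2 fold change. So did those of C4H1 (-0.20 and 0.05) and 4CL4 (-0.02 and 0.07), without a call between them. In C4H4 and 4CL5 the PA2x libraries overlapped with those of mock. On the log2 scale PA2x exceeded PA1x by 2.54 in C4H3, by 2.17 in C4H4 and by 1.53 in 4CL5 (limma, adjusted p = 0.000777, 0.000791 and 0.00029). All 3 PA2x libraries were above all 3 PA1x libraries in each of these 3 genes. Libraries of both groups did not overlap, in either direction, in 28.2% of all tested genes. The fold of each group over mock was 0.309 and 1.80 in C4H3, 0.454 and 2.04 in C4H4 and 0.543 and 1.57 in 4CL5, for PA1x and PA2x in turn. None of the 3 PA2x values against mock passed in the limma fit of all 15 libraries (adjusted p = 0.47, 0.247 and 0.247). Without replicate 3 of every group, an alternative chosen after seeing the data, C4H4 and 4CL5 passed (adjusted p = 0.0263 and 0.0479). The difference between PA2x and PA1x passed in every setting run for these genes, 15 for C4H3 and 16 each for C4H4 and 4CL5, with log2 ranges of 1.54 to 2.98, 2.01 to 2.48 and 1.40 to 1.76 and highest adjusted p-values of 0.00606, 0.00659 and 0.00263. PA2x plants had 1 spray more, on day 7, and no mock group was sprayed on that day, so the number of sprays and the day 7 handling cannot be told apart.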

How the results depend on the processing

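The count of members called between PA1x and mock, 2 (C4H3 and 4CL5), was the least steady. It was 1 with a pseudocount of 5, with a filter at a mean of 20, with TMM scaling, with edgeR and with DESeq2, and 0 with no filter on low values. It was 2 with only the libraries compared and without replicate 3 of every group, but of C4H4 and 4CL5, with C4H3 lost (adjusted p = 0.0817 and 0.115). Leaving out 1 library gave 0 to 2. DESeq2 gave C4H3 no adjusted p in the comparisons with mock, and the filter at 20 left C4H3 untested, so that neither counts as a lost call. For PA2x against mock, the count of 0 became 1 with DESeq2 (4CL3) and 3 without replicate 3 of every group, an alternative chosen after seeing the data, and was 0 to 1 with a library left out. The count for BABA against mock, 0, was then 0 to 1, and that for ASM against mock, 1, was 0 to 2. The count for PA2x against PA1x was 3 in every setting run but the filter at 20, with 2, and without PA2x replicate 1, with 4, where 4CL1 was lower. The count of members that varied over the 5 groups, 3, was 2 with the filter at 20, 4 with DESeq2 and without replicate 3 of every group, and 3 to 4 with a library left out.

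Directions turned only in values that no test had called. C4H3 in BABA against mock was 0.00 in the report's fit and 0.026 with a pseudocount of 5, 0.0024 with TMM scaling and 0.36 without replicate 3 of every group, and -0.34 to 0.47 with a library left out. Without replicate 3 of every group, 4CL4 in PA1x against mock was 0.016 and 4CL1 in PA1x against ASM -0.034. With a library left out these were -0.078 to 0.016 and -0.070 to 0.22, 4CL3 in PA1x against BABA was -0.43 to 0.013, and C4H1 against mock was -0.027 to 0.46 in BABA, -0.41 to 0.070 in PA1x and -0.17 to 0.36 in PA2x. The cause was not tested. Of all single-gene values under alternatives, 712 kept direction and side of the threshold, 29 no longer passed, 13 newly passed and 19 turned. Over all genes, counts of calls moved by more than 1.5 times in BABA against mock (46, but 86 with a filter at 20, 201 with DESeq2 and 10 with only the libraries compared), in PA2x against mock (170, but 375 and 23 with the latter pair of settings) and in ASM against mock (830, but 394 with only the libraries compared and 503 without replicate 3 of every group). TMM moved the median of all genes by at most -0.011 on the log2 scale.

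With the replicate number as a block (replicate block), 4 members varied over the groups in place of 3, adding 4CL3, and the counts were 0 for BABA, 1 for ASM, 2 for PA1x and 0 for PA2x against mock and 3 for PA2x against PA1x. It changed no other call. Same-numbered libraries of different groups had correlated deviations over 0.1 in 9 of 30 pairs (r from -0.34 to 0.40) and 9 of 15 libraries correlated best with their own number. Among replicate 3 libraries, all 6 pairs of mock, BABA, PA1x and PA2x were over 0.1 (0.23 to 0.40), and the 4 pairs with ASM were negative (-0.34 to -0.25). Since not every pair was over 0.1 and no label ties the numbers, the libraries were not treated as paired. Shared handling of the replicate 3 libraries was not tested.

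Reads limit C4H3, with 1 to 16 per library, and 4CL2 and C4H2, for which no difference was detectable. With 3 libraries a group an exact test of a single value cannot go below 0.1.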

Other observations

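The chalcone synthase gene CHS1 (Os11g0530600), which draws on coumaroyl-CoA to begin flavonoids, varied more between libraries of a group than any member with a mean of at least 20, with a coefficient of variation of 51.8% to 81.1%. Its normalised reads in replicates 1, 2 and 3 were 1935, 3138 and 957 in mock, 1922, 2360.3 and 430 in BABA and 391, 1494 and 3043 in ASM. They were 1842, 1306 and 566 in PA1x and 3881, 6221 and 763 in PA2x. CHS1 was lowest in replicate 3 of mock, BABA, PA1x and PA2x and in replicate 1 of ASM, and C4H4 was lowest in the same library of each group. Its r with C4H4 over the 15 libraries was 0.61, against 0.52 with 4CL5, 0.58 with C4H1 and 0.36 with 4CL3, values that describe libraries of shared treatment. F3H (Os04g0662600), the flavanone hydroxylase gene, and CAD7 (Os04g0612700), of the alcohol dehydrogenases that make monolignols, were at or near 0 reads throughout.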
